A study of Mus musculus with 19 samples.

Results

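The replication-dependent histone genes encode the linker histone H1 and the core histones H2A, H2B, H3 and H4 that package newly copied DNA. All rows of the deposited expression table whose symbol starts with Hist1h, Hist2h, Hist3h or Hist4h were taken, which gave 57 of 12942 genes. Of these, 55 were analysed together, and the testis variants Hist1h2aa and Hist1h2ba, a pair encoding H2A and H2B proteins of male germ cells, are given apart. By class the 57 rows comprised 6 H1, 14 H2A, 15 H2B, 9 H3 and 13 H4 genes. By cluster 51 belonged to Hist1 on chromosome 13, 3 to Hist2 on chromosome 3, 2 to Hist3 on chromosome 11 and 1 to Hist4 on chromosome 6.

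RNA-seq was done on male mouse embryonic stem cells (ESCs) grown on MEF feeders, from the lines named J-34, J-35 and also J-37. From passage 4 the cells were kept for 6 passages in 2i/L, in a2i/L, in PKCi/L or in S/L (passage 10), for 3 passages in S/L+PD (passage 7), or for 16 passages in S/L or 2i/L (passage 20). In the last group, cells kept for 16 passages in 2i/L were put back into S/L for 3 passages (passage 23). In common usage S/L is serum with the cytokine LIF, 2i inhibits Mek1/2 and Gsk3, a2i inhibits Src and Gsk3, PKCi inhibits protein kinase C and PD is the Mek1/2 inhibitor alone; the labels give the short names only. The groups of passages 7 and 10 had 2 libraries each and the groups of passages 20 and 23 had 3 each, 19 libraries in all, 1 for each line in a group. S/L, 2i/L and a2i/L at passage 10 were J-34 and J-35, and the groups of 3 held every line. In PKCi/L and in S/L+PD 1 library is J-34 and the other is titled J-37, although its generation label names J-35, so these comparisons may also set J-37 against J-35. P-values measure the spread between these lines and libraries.

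In dividing cells the bulk of histone mRNA is made in S phase, when the coactivator NPAT drives the clustered genes. Unlike most mRNAs, these transcripts typically end in a short stem-loop bound by SLBP and not in a poly(A) tail. Embryonic stem cells spend much of their cycle in S phase and carry large amounts of these mRNAs. The libraries were made after ribosomal RNA depletion and not from poly(A) RNA, so transcripts without a tail could be counted.

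The stem-loops are shown because they define these mRNAs and differ between H4 and the other classes. A stem of 6 base pairs starting with GG and a loop of 4 bases starting with TT was found in the GENCODE M21 transcripts of 37 of the 57 rows (64.9%), against 141 of 55271 genes not named Hist (0.255%). Of the 20 rows without it, 15 had an annotated transcript shorter than 500 bases. In H1, H2A, H2B and H3 transcripts the stem was always the same and the loop ended in C (19 rows), A (6 rows) or T (1 row, Hist2h2ac). The H4 transcripts carried other stems, and that of Hist1h4b and Hist1h4j differed from that of the remaining H4 rows. Some annotated transcripts run far past the stem-loop, which starts at base 2526 of 7425 in Hist1h1d, 450 of 1679 in Hist1h2bh and 403 of 2863 in Hist4h4. In others it lies near the end, as at base 447 of 473 in Hist1h2ab. Reads from forms that end at the stem-loop and from longer forms were not told apart. The 16 bases are printed as DNA, 5′ to 3′, with the loop in capitals and a member as example.
Hist1h1c, Hist1h1e, Hist1h2bh and Hist3h2ba: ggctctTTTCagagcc
Hist1h2bb and Hist1h3e: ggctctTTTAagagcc
Hist2h2ac: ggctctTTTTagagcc
Hist1h4d, Hist1h4f and Hist4h4: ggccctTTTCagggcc
Hist2h4 and Hist1h4i: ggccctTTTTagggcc
Hist1h4b and Hist1h4j: ggtcctTTTCaggacc

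Promoters are shown for 1 gene of the testis pair, which had the largest changes among the 57 histone rows, and for the H1 and the H4 gene with the highest mean CPM of their class, a choice that takes no account of transcript length. RefSeq promoters (GRCm38.p6, 250 bases before to 50 after the start site) were matched for 51 of the 57 rows. CCAAT on either strand lay in all 39 promoters of H1, H2A, H2B and H3 genes and in 3 of 12 H4 promoters (25.0%), against 37.9% of all 27025 promoters. The octamer ATTTGCAT, on either strand, lay in 6 of 13 H2A and 6 of 13 H2B promoters and in no H1, H3 or H4 promoter, against 1.75% of all. TATAA on the sense strand, 50 to 16 bases before the start, lay in 20 of 51 (39.2%), against 4.60% of all. No capitals of different motifs overlap in the sequences below, and a TATAA of Hist1h2ba 94 bases before its start lies outside that window. The 250 bases before the start site are printed 5′ to 3′ on the gene's strand, with CCAAT, the octamer and TATAA in that window in capitals (ATTGG is CCAAT on the other strand).
Hist1h2ba, chr13:23934157-23934406, minus strand: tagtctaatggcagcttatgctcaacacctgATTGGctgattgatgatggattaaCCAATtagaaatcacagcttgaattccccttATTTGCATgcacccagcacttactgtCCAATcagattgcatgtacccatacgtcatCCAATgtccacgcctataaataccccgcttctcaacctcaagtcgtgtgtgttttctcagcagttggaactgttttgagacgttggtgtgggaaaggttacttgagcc
Hist1h1a, chr13:23763418-23763667, plus strand: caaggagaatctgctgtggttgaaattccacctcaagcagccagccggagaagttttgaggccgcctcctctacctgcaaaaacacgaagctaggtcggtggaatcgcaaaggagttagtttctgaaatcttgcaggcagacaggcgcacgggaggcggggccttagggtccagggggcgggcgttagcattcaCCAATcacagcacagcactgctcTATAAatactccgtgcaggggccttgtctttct
Hist1h4d, chr13:23581318-23581567, plus strand: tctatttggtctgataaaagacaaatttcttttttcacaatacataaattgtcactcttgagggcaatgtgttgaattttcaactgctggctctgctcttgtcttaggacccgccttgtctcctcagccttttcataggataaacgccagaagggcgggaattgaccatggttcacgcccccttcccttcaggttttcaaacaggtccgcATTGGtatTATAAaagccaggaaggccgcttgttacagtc

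Hist1h2ba and Hist1h2aa face away from each other with start sites 281 bases apart, so the Hist1h2ba window shown lies wholly between both start sites. Such divergent pairs of an H2A and an H2B gene numbered 8 among the matched rows, with 164 to 281 bases between start sites. Many members are near copies: a median of 44.1% of the 50-base stretches of a member's transcript also occurred in another histone gene (0 to 93.9%). Levels of single members can therefore be shared between copies by the authors' counting, which was not tested. Hist1h2ah, Hist1h2ai and Hist1h3h, all above 90%, are not read singly, save for a lost call of Hist1h3h. Hist1h4m (89.8%), Hist1h3i (87.6%), Hist1h2bn (86.4%) and Hist1h2an (85.8%) are named below with the same limit. Hist1h2al and Hist3h2bb-ps are annotated as processed pseudogenes.

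Levels below are read counts relative to library size (CPM, as deposited) after TMM scaling, a scaling between libraries based on the bulk of genes. Changes are log2 differences of TMM-scaled CPM + 0.5, which understates them at low levels, and are given ± limma's standard error. The words rose and fell are kept for genes whose p-value, adjusted over all 12942 genes, was below 0.05. Many genes named below were picked for their large changes, so groups without overlap describe them and add no support. The share of all genes without overlap was not counted. The listed genes summed to 421426 to 465897 deposited CPM in the 10 libraries of passages 7 and 10 and to 292986 to 396883 in the 9 later ones. Early and late libraries thus differ in this sum. No group holds both, so library set and passage cannot be told apart. The 9 ESC markers summed to 2049 to 3166 CPM across the libraries, and were thus present in all of them. Fibroblast markers of the feeder layer, 11 of 12 measured, summed to 11.1 to 21.6 CPM in S/L, a2i/L and PKCi/L at passage 10, 68.4 to 104.7 in 2i/L at passage 10 and 1024 to 1620.0 in S/L+PD. At the later passages they summed to 47.5 to 89.97 in S/L, 464.3 to 551.2 in 2i/L and 36.0 to 47.4 after the return. Of the single markers, Dcn was at 0 in J-34 S/L at passage 10, and S100a4 in J-35 2i/L at passage 10, both a2i/L libraries and J-37 PKCi/L.

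Histone mRNA was highest in S/L at passage 20 and lowest in S/L+PD. Summed H1 mRNA read 981 and 1097 CPM in S/L at passage 10, 1302 and 1222 in 2i/L, 1706 and 1611 in a2i/L, 1678 and 1786 in PKCi/L, and 816 and 760 in S/L+PD. At passage 20 it read 2720.0, 2458 and 3157 CPM in S/L and 1034, 1039 and 1075 in 2i/L, and 2238, 1501 and 2044 CPM after the return (lines in the order J-34, J-35, J-37). The 3 libraries of S/L at passage 20 stood above the other 16 libraries for H1. For 43 of the 55 rows the highest group mean was that of S/L at passage 20, for 10 that of PKCi/L and for 2 that of a2i/L. The lowest group mean was that of S/L+PD for 38 rows, 2i/L at passage 20 for 10, S/L at passage 10 for 6 and 2i/L at passage 10 for 1. Between its highest and lowest group mean a row differed by a median of 3.46-fold (1.88 to 15.7-fold). In a pool of cells, fewer cells in S phase and less histone mRNA per cell cannot be told apart.

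**Figure D1:**
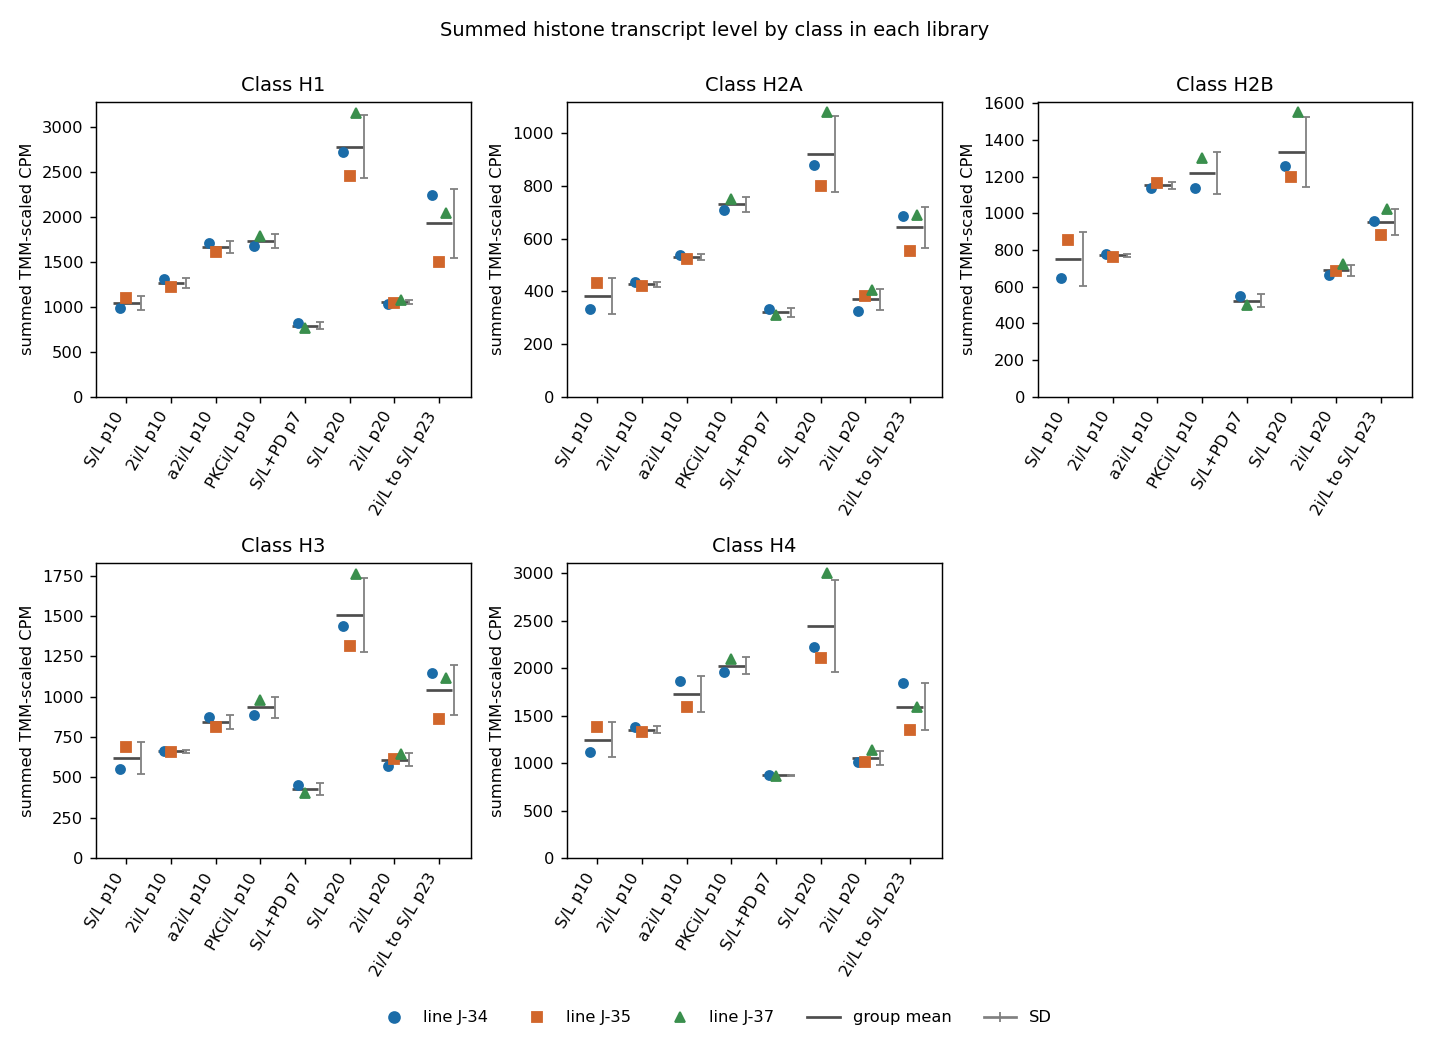
Summed TMM-scaled CPM of each histone class (y axis) in the 8 groups (x axis), with 1 point per library, the marker giving the line, a bar for the group mean and a whisker for the SD. The 3 libraries of S/L at passage 20 (H1: 2458 to 3157 CPM) lie above those of 2i/L at passage 20 (H1: 1034 to 1075 CPM) in every class.

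Lines differed in step across the members. Within S/L at passage 10, J-35 read above J-34 in 55 of 55 rows, and within S/L at passage 20, J-37 read highest in 55 of 55. After the return J-35 was the lowest of the 3 lines in 47 rows. The members share a library, so this order is 1 observation per group and not 55.

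After 6 passages in 2i/L the histone genes moved in both directions against S/L at passage 10. Of 55 rows 15 rose and 5 fell (27.3% and 9.1%), beside 24.8% of all genes higher and 24.7% lower. The share of rises was thus near that of all genes, and the share of falls below it. The median change was 0.15 against -0.01 over all genes. Each of the 3 comparisons with S/L at passage 10 uses the same 2 S/L libraries, as does that of S/L+PD. Of H1 genes 2 of 6 rose, of H2A 5 of 13 rose and 1 fell, of H2B 3 of 14 rose and 4 fell, of H3 2 of 9 rose, and of H4 3 of 13 rose.

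Hist1h1a, a linker histone, rose from 252.5 and 263.2 CPM in S/L to 421.3 and 383.1 CPM in 2i/L (0.64±0.17, adjusted p = 0.00318), with no overlap. Hist1h2an, an H2A gene, read 3.47 and 4.22 CPM in S/L and 6.64 and 7.66 in 2i/L, again without overlap, and rose by 0.82±0.24 (adjusted p = 0.00743). Hist1h2bm, an H2B gene, rose from 52.0 and 64.4 to 95.9 and 89.5 CPM (0.67±0.11, adjusted p = 4.14e-05). The falls were 4 of H2B genes and that of the H2A gene Hist1h2af. Hist1h2bh read 8.07 and 9.99 CPM in S/L and 3.41 and 4.15 in 2i/L (-1.15±0.26, adjusted p = 0.000974), and Hist1h2bf 28.9 and 35.3 against 20.01 and 19.8 (-0.67±0.13, adjusted p = 0.000283). Hist1h2be (-0.58±0.14) and Hist1h2bg (-0.42±0.15) fell as well, and the 2i/L libraries lay below both S/L libraries for each of these 4 genes. The counts rested on single libraries: 2 rows rose without J-34 S/L, 6 and 7 without J-34 or J-35 2i/L, and 2 or 3 fell without J-35 S/L or either 2i/L library. Without library scaling the calls of Hist1h2bg (-0.37, adjusted p = 0.102) and Hist1h2af (adjusted p = 0.198) were lost.

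Cells in a2i/L at passage 10 had more histone mRNA of every class than cells in S/L. Of 55 rows 41 rose and none fell (limma, 0 lower also at an unadjusted p below 0.05), beside 17.9% of all genes higher and 18.8% lower, with a median of 0.55 against -0.01 over all genes. Rises were seen for 5 of 6 H1, 10 of 13 H2A, 10 of 14 H2B, 7 of 9 H3 and 9 of 13 H4 genes. Summed levels were 1.60-fold those of S/L for H1, 1.39-fold for H2A, 1.54-fold for H2B, 1.36-fold for H3 and 1.39-fold for H4, and groups did not overlap in any class. Hist1h1e, a linker histone, rose from 35.6 and 44.6 to 105.4 and 114.9 CPM (1.46±0.18, adjusted p = 2.98e-06). Hist3h2ba, the H2B gene of the small Hist3 cluster, rose from 2.43 and 4.50 to 6.79 and 9.61 CPM (1.17±0.25, adjusted p = 0.000954). In both genes every a2i/L library lay above every S/L library. Of the genes with the highest mean CPM in their class, Hist1h2ak of H2A (0.55±0.14), Hist1h2bb of H2B (0.77±0.12), Hist1h3e of H3 (0.41±0.14) and Hist1h4d of H4 (0.49±0.15) rose too. Without J-34 S/L 16 rows rose and without J-34 a2i/L 24. Without library scaling 24 rose, and Hist1h2ak (adjusted p = 0.0514), Hist1h3e (0.191) and Hist1h4d (0.112) no longer passed.

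The rise was widest in PKCi/L at passage 10, where 53 of 55 rows rose and none fell (0 lower also at an unadjusted p below 0.05 with limma), beside 17.5% of all genes higher and 19.1% lower. The median change was 0.79 against 0.00 over all genes. All 6 H1, 14 H2B and 9 H3 genes rose, with 12 of 13 H2A and 12 of 13 H4 genes, and Hist2h2ab (0.62±0.25) and Hist1h4i (0.36±0.15) were those that did not pass. Summed H2A was 1.91-fold that of S/L and summed H3 1.503-fold, and the groups did not overlap in any class. Hist1h2bh rose from 8.07 and 9.99 CPM in S/L to 35.7 and 24.2 CPM (1.66±0.26, adjusted p = 4.95e-05), the gene that fell in 2i/L. Hist1h3i, an H3 gene, rose from 14.1 and 18.2 to 41.6 and 42.5 CPM (1.36±0.20, adjusted p = 2.13e-05). For both, the PKCi/L libraries lay above the S/L libraries. Hist3h2ba (1.51±0.25), Hist1h1e (1.38±0.18) and the single Hist4 row, Hist4h4 (1.36±0.20), an H4 gene, rose as well. With the line of the title as replicate block, 4 of these calls were lost, those of the H3 genes Hist1h3c (adjusted p = 0.0574), Hist1h3g (0.0751) and Hist1h3h (0.0915) and of the H4 gene Hist1h4b (0.0698). Without J-34 S/L, and without library scaling, 35 rows rose.

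After 3 passages in S/L+PD the direction was the opposite. Of 55 rows 29 fell and 1 rose, beside 22.4% of all genes lower and 22.5% higher, and the median was -0.45 against -0.01 over all genes. Medium, passage and, by title, 1 line differ together in this comparison with S/L at passage 10. Falls were counted for 3 of 6 H1, 4 of 13 H2A, 8 of 14 H2B, 6 of 9 H3 and 8 of 13 H4 genes. Hist1h1d, a linker histone, fell from 307.1 and 345.5 to 140.8 and 135.5 CPM (-1.23±0.14, adjusted p = 2.68e-07). Hist1h2bf fell from 28.9 and 35.3 to 11.2 and 14.8 CPM (-1.28±0.13, adjusted p = 1.28e-07), and Hist1h4f, an H4 gene, from 166.9 and 199.8 to 75.1 and 81.6 CPM (-1.22±0.15, adjusted p = 8.94e-07). None of these groups overlapped. Hist1h1e fell from 35.6 and 44.6 to 17.4 and 19.1 CPM (adjusted p = 4.74e-05), whereas Hist1h1a read 320.8 and 281.4 CPM (0.22±0.17, adjusted p = 0.297) and did not pass. The 1 row that rose was Hist1h2an, from 3.47 and 4.22 to 9.82 and 8.06 CPM (1.12±0.24, adjusted p = 0.000736), without overlap. All 11 feeder markers rose in S/L+PD (Col3a1, a fibroblast collagen, from 0.457 and 0.605 to 251.1 and 141.7 CPM), and their part in the lower histone levels was not tested. Without J-35 S/L, 19 rows fell and 2 rose.

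At passage 20 nearly every histone gene was lower in 2i/L than in S/L. Of 55 rows 54 fell and none rose (0 higher also at an unadjusted p below 0.05 with limma), beside 33.4% of all genes lower and 31.2% higher, and the median was -1.30 against -0.02. Hist1h2bm was the row that did not pass, at 59.7, 59.8 and 70.7 CPM in S/L and 55.1, 52.9 and 58.9 in 2i/L (-0.18±0.09, adjusted p = 0.0831), with its groups close but not overlapping. Summed levels in S/L were 2.65-fold those in 2i/L for H1, 2.49-fold for H2A, 1.94-fold for H2B, 2.47-fold for H3 and 2.32-fold for H4, and no class overlapped. Medians of the log2 change were -1.70 for H1, -1.26 for H2A, -1.20 for H2B, -1.42 for H3 and -1.30 for H4.

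Outside the testis pair, the H2B genes Hist1h2bh and Hist3h2ba had the largest falls in this comparison. As a class, however, H2B had the smallest median fall (-1.20). Hist1h2bh read 54.1, 51.9 and 65.6 CPM in S/L and 4.40, 7.75 and 6.72 in 2i/L (-3.11±0.21, adjusted p = 1.37e-10), and Hist3h2ba 33.6, 24.2 and 39.0 against 3.62, 3.66 and 3.84 (-2.93±0.20, adjusted p = 1.49e-10). For both genes the lowest S/L library lay far above the highest 2i/L library. Hist1h1a fell from 900.6, 803.6 and 1078 to 289.1, 270.0 and 305.6 CPM (-1.68±0.14, adjusted p = 1.66e-09). Hist1h3e fell from 483.0, 429.6 and 602.8 to 180.0, 187.0 and 192.6 CPM (-1.42±0.12, adjusted p = 1.71e-09). Hist1h4d fell from 454.5, 446.8 and 604.8 to 217.8, 211.5 and 216.6 CPM (-1.21±0.12, adjusted p = 3.83e-08). These 3 members also fell without overlap, and Hist1h2ak (-1.46±0.12), Hist1h2bb (-0.62±0.10), Hist2h4 (-1.52±0.18) and Hist4h4 (-1.30±0.16) fell with them. Without library scaling 48 rows fell, and Hist1h2bb was no longer called (-0.23, adjusted p = 0.159). Of the 11 feeder markers 9 were higher in 2i/L and 2 lower, and their part in the histone result was not tested.

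**Figure D2:**
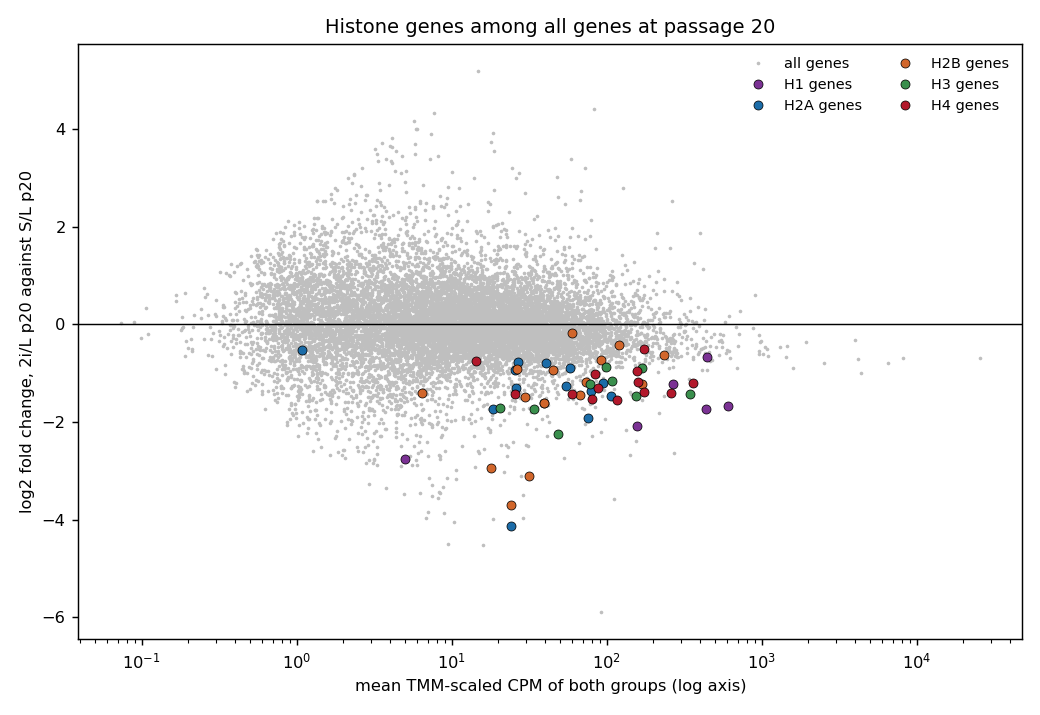
Log2 fold change of 2i/L against S/L at passage 20 (y axis) against the mean TMM-scaled CPM of both groups (x axis, log scale), with all genes in grey and the 57 histone genes coloured by class. Every histone gene lies below 0, with the 55 rows between -3.11 and -0.18 and the testis variants at -4.14 and -3.70.

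Cells put back from 2i/L into S/L lay between the other late groups. Against 2i/L at passage 20, 48 of 55 rows rose and 1 fell, beside 28.3% of all genes higher and 26.8% lower, with a median of 0.68 against 0.02. Against S/L at passage 20, 42 fell and none rose (0 higher also at an unadjusted p below 0.05 with limma), beside 23.2% of all genes lower and 21.3% higher, with a median of -0.53 against -0.03. Both comparisons share the 3 libraries of the return. Summed H1 was 1.84-fold that of 2i/L, and in S/L 1.44-fold that of the return. For H4 these ratios were 1.51 and 1.53, and for all 5 classes the return overlapped neither group.

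Hist1h2bh, at 39.8, 22.2 and 40.9 CPM after the return, rose over 2i/L by 2.34±0.21 (adjusted p = 1.13e-08) and stayed below S/L by 0.77 on the log2 scale (-0.77±0.21, adjusted p = 0.00576). Hist3h2ba, at 16.3, 13.2 and 21.9 CPM, rose by 2.04±0.20 over 2i/L and lay below S/L (-0.90±0.20, adjusted p = 0.00121). Every return library of both genes lay between the other groups. Hist1h2an, at 24.8, 21.6 and 27.4 CPM, rose by 1.52±0.20 over 2i/L, and its difference from S/L (-0.21±0.20, adjusted p = 0.398) did not pass. Its return and S/L libraries (26.6 to 32.4 CPM) overlapped. Hist2h4, the H4 gene of the Hist2 cluster, read 77.6, 39.8 and 59.8 CPM after the return against 107.4, 96.7 and 154.3 in S/L (-1.03±0.18, adjusted p = 0.000102). Hist1h1t, a linker histone known mainly from spermatocytes, read 4.42, 2.39 and 3.40 CPM against 9.86, 7.33 and 9.95 in S/L (-1.31±0.20, adjusted p = 2.27e-05). Hist1h2bm was the row below 2i/L, at 43.2, 46.4 and 51.2 CPM (-0.24±0.09, adjusted p = 0.0279), and it no longer passed without J-34 or J-37 2i/L or without J-34 or J-35 of the return. Without library scaling 18 rows fell against S/L.

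**Figure D3:**
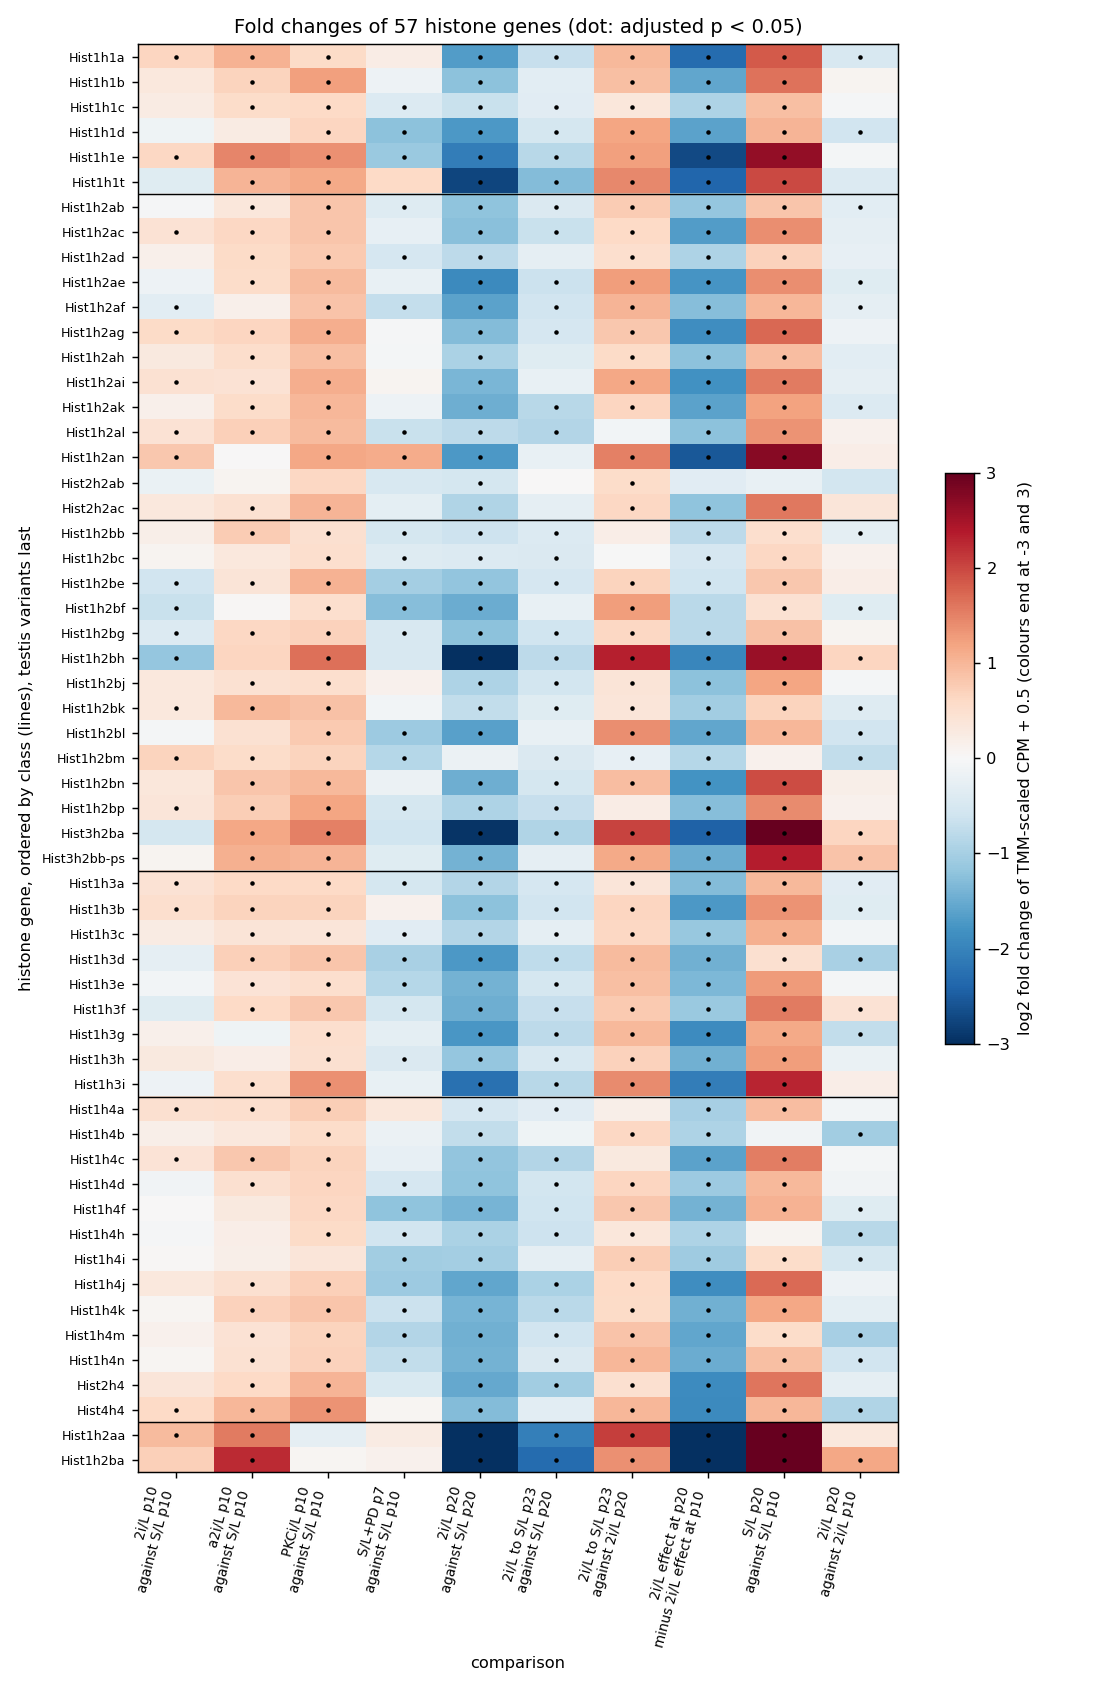
Log2 fold change of the 57 histone genes (rows, grouped by class with the testis variants last) in 10 comparisons (columns), coloured from -3 to 3, with a dot where the adjusted p was below 0.05. Red columns for a2i/L and PKCi/L (41 and 53 of 55 rows higher) stand beside the blue column for 2i/L at passage 20 (54 of 55 lower).

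The 2i/L effect at passage 20 was tested against that at passage 10 as an interaction, which sets a difference within the late libraries against one within the early libraries. In 54 of 55 rows it was lower at passage 20 and in none higher (0 also at an unadjusted p below 0.05 with limma), beside 20.4% of all genes lower and 19.1% higher, with a median of -1.44 against -0.03. Hist2h2ab, an H2A gene at 0.508 to 2.79 CPM, was the row that did not pass (-0.33±0.32, adjusted p = 0.434). For Hist1h1e the 2i/L libraries lay above S/L at passage 10, at 59.1 and 64.2 against 35.6 and 44.6 CPM. At passage 20 they lay below, at 65.8, 58.6 and 53.9 against 244.3, 243.5 and 268.3 CPM. The difference of the effects was -2.70±0.23 (adjusted p = 6.19e-08). Between passages S/L rose by 2.65±0.17 for this gene, while the change in 2i/L did not pass (-0.06±0.17, adjusted p = 0.794). For Hist1h2an it was -2.55±0.31 (adjusted p = 3.29e-06).

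Of 55 rows 51 were higher in S/L at passage 20 than at passage 10 and none lower (0 lower also at an unadjusted p below 0.05 with limma), beside 26.8% of all genes higher and 26.4% lower, with a median of 1.14 against 0.00. Without library scaling 34 were higher and 4 lower, and the median over all genes was -0.52. The called rows Hist1h2bb (-0.07), Hist1h2bf (-0.12), Hist1h3d (-0.09), Hist1h4i (-0.03) and Hist1h4m (-0.01) then lay below 0 and did not pass. Hist3h2ba read 2.43 and 4.50 CPM at passage 10 and 33.6, 24.2 and 39.0 at passage 20 (3.07±0.23, adjusted p = 2.27e-09). Hist1h2an read 3.47 and 4.22 CPM against 26.7, 26.6 and 32.4 (2.74±0.22, adjusted p = 6.15e-09), and Hist1h1a, with the values given above, rose by 1.83±0.15 (adjusted p = 9.94e-09). None of the 3 genes overlapped between passages.

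In 2i/L 4 of 55 rows were higher at passage 20 than at passage 10 and 22 lower, beside 25.2% of all genes higher and 27.1% lower, with a median of -0.28 against -0.01. Without library scaling 1 was higher, Hist3h2bb-ps, and 30 lower, and the median over all genes was -0.22. The 4 higher rows were all H2B or H3 genes: Hist3h2bb-ps (0.86±0.22), Hist3h2ba (0.65±0.23), Hist1h2bh (0.64±0.24) and Hist1h3f (0.43±0.13). With the line of the generation label as replicate block Hist1h2bh did not pass (0.53, adjusted p = 0.0601). Among the lower ones, the H4 gene Hist1h4b read 21.6 and 21.9 CPM at passage 10 and 10.3, 7.95 and 13.6 at passage 20 (-1.03±0.17, adjusted p = 4.07e-05). Hist4h4 read 98.2 and 87.8 CPM against 46.3, 44.1 and 59.8 (-0.90±0.18, adjusted p = 0.000340), and both genes fell without overlap. Hist1h4m (-1.01±0.14) and the H3 gene Hist1h3d (-0.98±0.13) fell too, and of the H4 class 7 of 13 fell. Without J-34 or J-35 2i/L at passage 10, 11 and 13 rows fell and 2 rose, and without J-34 2i/L at passage 20, 13 fell. Both passage comparisons cross the early and late libraries, so passage and library set cannot be told apart.

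The make-up of the linker histone mRNA differed between groups. Shares of summed H1 CPM also depend on transcript length, so they are read across groups for the same gene. Hist1h1a made up 25.7% and 24.0% of H1 in S/L at passage 10, 32.4% and 31.4% in 2i/L, 33.8% and 30.8% in a2i/L, 23.7% and 21.1% in PKCi/L, and 39.3% and 37% in S/L+PD. Its share in these 2i/L, a2i/L and S/L+PD libraries thus lay above that in S/L at passage 10, and in PKCi/L below it. At passage 20 the order of 2i/L and S/L was the reverse. Hist1h1a then made up 27.95%, 25.97% and 28.43% in 2i/L and 33.11%, 32.7% and 34.14% in S/L. Its mean share in S/L was 24.87% at passage 10 and 33.31% at passage 20. Hist1h1d took 31.3% and 31.5% in S/L at passage 10, 24.0% and 23.5% in 2i/L, 23.1% and 23.5% in a2i/L, 28.5% and 30.3% in PKCi/L, and 17.3% and 17.8% in S/L+PD, below S/L in each of these 8 libraries. Hist1h1c, a linker histone, took 34.3%, 31.7% and 31.7% in 2i/L at passage 20 against 19.6%, 19.8% and 19.9% in S/L, and its level fell by 0.68±0.10 on the log2 scale (adjusted p = 4.79e-06), the smallest H1 fall in that comparison, which did not pass without library scaling (-0.28, adjusted p = 0.0806). Hist1h1e took 2.13% to 2.52% in S/L+PD and 8.499% to 9.91% in S/L at passage 20.

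**Figure D4:**
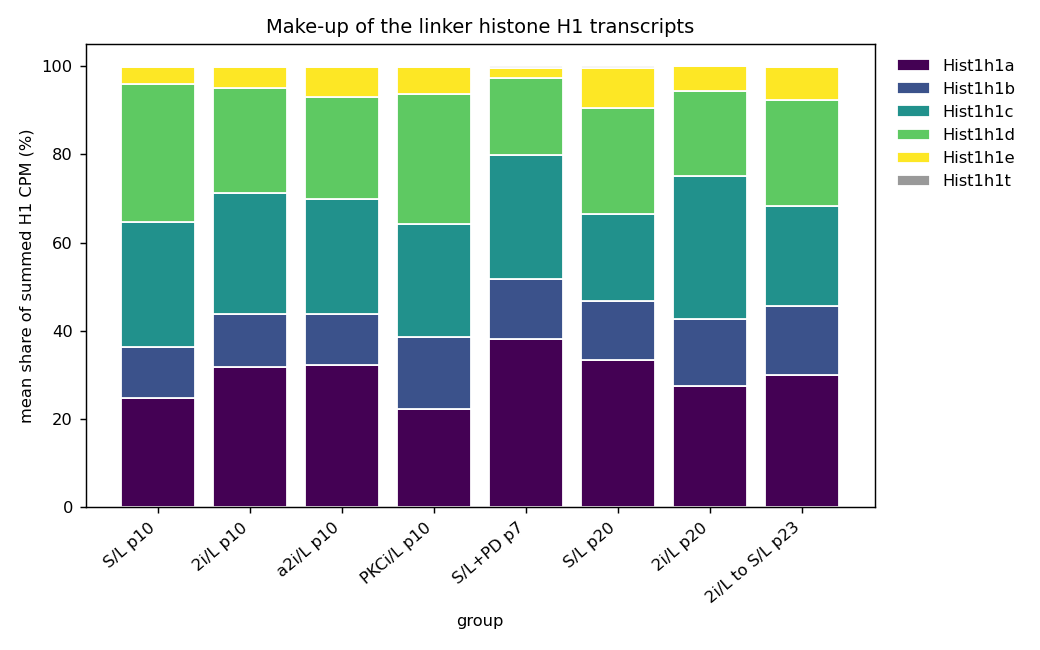
Mean share of each H1 gene in the summed TMM-scaled H1 CPM (y axis, %) in the 8 groups (x axis), as stacked bars. Hist1h1a was 24.9% in S/L at passage 10 and 38.2% in S/L+PD, and Hist1h1d 31.4% and 17.5%.

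The small clusters hold few rows, so only their values are given. In 2i/L at passage 20 all 3 Hist2, both Hist3 and the single Hist4 row fell, with medians of -0.89, -2.17 and -1.30 beside -1.26 for the 49 Hist1 rows other than the testis pair. Summed Hist3 mRNA read 43.6, 31.9 and 49.99 CPM in S/L at passage 20 and 6.59, 6.82 and 7.49 in 2i/L, a ratio of 6.00 with no overlap. It rests on Hist3h2ba and on the pseudogene Hist3h2bb-ps, which read 10.01, 7.71 and 10.97 CPM in S/L and 2.97, 3.17 and 3.65 in 2i/L (-1.41±0.20). In 2i/L between passages both Hist3 rows rose (median 0.76), no Hist2 row passed and Hist4h4 fell, while 21 of the 49 Hist1 rows fell and 2 rose (median -0.28). In 2i/L at passage 10 no Hist2 or Hist3 row passed, with medians of 0.32 and -0.22, and Hist4h4 rose. In S/L+PD none of the 6 rows of the small clusters passed. With the line of the title as replicate block Hist2h2ab (adjusted p = 0.0492), Hist2h4 (0.0204) and Hist3h2ba (0.0151) fell there, and Hist3h2ba also fell with the line of the generation label (0.0382) and without library scaling (0.0406). In the same comparison Hist4h4 read 63.2 and 64.8 CPM against 57.2 and 65.0 in S/L (0.07±0.20, adjusted p = 0.802). Whether the small clusters differ from Hist1 was not tested.

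The testis variants moved furthest of all. Hist1h2aa read 0.738 and 0.449 CPM in S/L at passage 10 and 48.0, 36.8 and 53.1 at passage 20 (5.41±0.26, adjusted p = 5.71e-12). Hist1h2ba read 0.510 and 0.406 CPM against 44.5, 37.1 and 53.9 (5.56±0.30, adjusted p = 2.31e-11). Both genes were below 1 CPM in every S/L library of passage 10 and above 36 CPM in every one of passage 20. In 2i/L at passage 20 Hist1h2aa read 1.83, 1.80 and 2.81 CPM (-4.14±0.23 against S/L, adjusted p = 7.38e-12) and Hist1h2ba 2.91, 2.78 and 3.26 (-3.70±0.26, adjusted p = 2.65e-10). After the return they read 15.5, 6.22 and 12.0 CPM and 16.1, 4.46 and 8.48 CPM. These values lay above every 2i/L library (2.08±0.23 and 1.38±0.26) and below every S/L library of passage 20 (-2.06±0.23 and -2.32±0.26), and J-35 was the lowest line for both.

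At passage 10 both genes rose in a2i/L and neither passed in PKCi/L. In a2i/L Hist1h2aa read 2.42 and 2.99 CPM (1.56±0.28 against S/L, adjusted p = 0.000199) and Hist1h2ba 3.42 and 4.64 (2.23±0.32, adjusted p = 1.89e-05). In PKCi/L they read 0.401 and 0.391 CPM (-0.28±0.28, adjusted p = 0.471) and 0.429 and 0.555 CPM (0.05±0.32, adjusted p = 0.922), so that the PKCi/L and S/L libraries lay close together and those of a2i/L above both. In 2i/L at passage 10 Hist1h2aa, at 1.52 and 1.65 CPM, rose (0.94±0.28, adjusted p = 0.00828), and Hist1h2ba, at 1.17 and 0.955 CPM, did not pass (0.71±0.32, adjusted p = 0.0767), though it did without library scaling (0.78, adjusted p = 0.0441). The difference between a2i/L and PKCi/L was not tested. In S/L+PD they read 0.812 and 0.745 CPM (0.24±0.28) and 0.527 and 0.580 CPM (0.14±0.32), which did not pass. Between passages in 2i/L Hist1h2ba rose by 1.16±0.30 (adjusted p = 0.00270) and Hist1h2aa did not pass (0.32±0.26, adjusted p = 0.2997). The interaction of medium and passage was -5.08±0.36 for Hist1h2aa and -4.40±0.42 for Hist1h2ba (adjusted p = 7.20e-09 and 1.98e-07). Of 7 germ cell markers 5 were measured. Their sum was 77.9 to 83.0 CPM in S/L at passage 10 and 50.5 to 61.0 at passage 20. Between these passages 1 rose and 2 fell (0 and 4 without scaling). Of all genes 26.8% rose and 26.4% fell, and without scaling 890 of 12942 rose and 7806 fell. Changes of the 5 markers ranged from -1.65 to 0.71, with a median of -0.24. Ddx4, a germ cell RNA helicase, read 21.6 and 17.8 CPM at passage 10 and 5.26, 6.14 and 6.37 at passage 20. Their part in the levels of the pair was not tested.

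**Figure D5:**
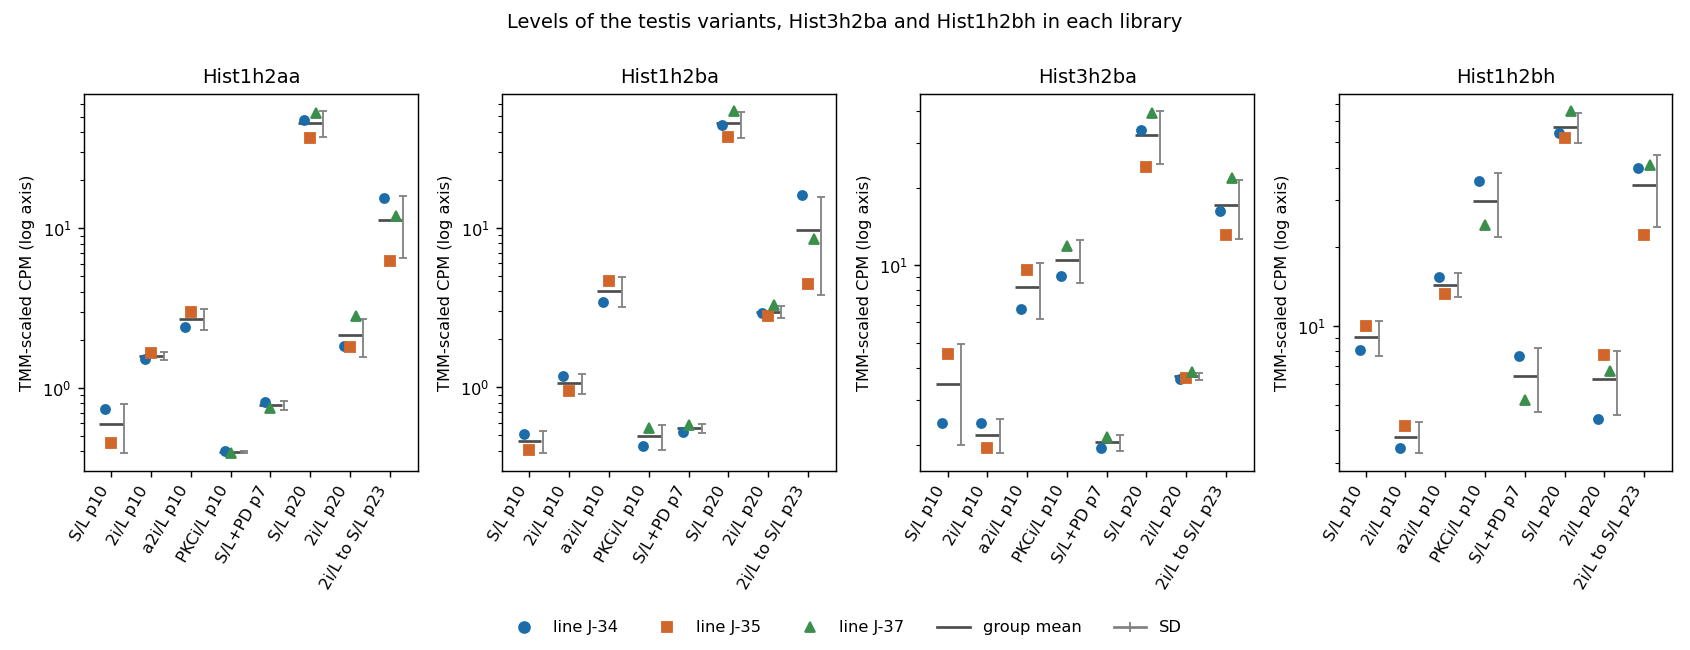
TMM-scaled CPM (y axis, log scale) of Hist1h2aa, Hist1h2ba, Hist3h2ba and Hist1h2bh in the 8 groups (x axis), with 1 point per library, the marker giving the line, a bar for the group mean and a whisker for the SD. For all 4 genes the S/L libraries of passage 20 (24.2 to 65.6 CPM) are the highest and those of the return lie between them and 2i/L at passage 20.

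Divergent partners share the stretch between their start sites. In 2i/L at passage 20 every histone row lay below 0, so a shared direction was not particular to partners, and the amounts often differed. Hist1h2ak and Hist1h2bn, 164 bases apart, both changed by -1.46. Hist1h2an and Hist1h2bp, 240 bases apart, changed by -1.73 and -0.92, and Hist1h2bf and Hist1h2ad, 174 bases apart, by -1.48 and -0.78. The other 5 pairs differed by 0.21 to 0.69 on the log2 scale. In other comparisons some partners lay on opposite sides of 0, while others shared a direction. In S/L+PD Hist1h2an changed by 1.12 and Hist1h2bp by -0.52. In 2i/L at passage 10 Hist1h2bf changed by -0.67 and Hist1h2ad by 0.15. Whether partners are more alike than other members was not tested.

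The genes of histone mRNA production are given next, as counts and single genes. Slbp, the stem-loop binding protein, read 38.4 and 43.5 CPM in S/L at passage 10 and 64.7 and 56.4 in 2i/L (0.56±0.10, adjusted p = 0.000125), with no overlap. At passage 20 it read 42.6, 51.7 and 44.4 CPM in S/L and 49.8, 54.7 and 50.8 in 2i/L, and did not pass (0.17±0.08, adjusted p = 0.0898), but did without scaling (0.55±0.12, adjusted p = 8.49e-05). Npat, the coactivator, rose slightly in 2i/L at passage 20 (0.20±0.08, adjusted p = 0.0262), where the histone genes fell. Of 20 processing and transcription genes, 10 rose and 3 fell in 2i/L at passage 10 (50% and 15%, beside 24.8% and 24.7% of all genes). In PKCi/L 7 rose and 3 fell (35% and 15%, beside 17.5% and 19.1%), and in 2i/L at passage 20 5 rose and 6 fell (25.0% and 30%, median -0.15), near the 31.2% and 33.4% of all genes. These counts moved with the scaling, and without it 6 rose and 2 fell, 1 rose and 3 fell, and 9 rose and 1 fell. All-gene calls moved too, to 2941 higher and 2268 lower in 2i/L at passage 10 and 750 and 3046 in PKCi/L. In 2i/L at passage 20 they were 6469 higher and 1592 lower. Zfp473, whose human counterpart is part of the histone pre-mRNA processing machinery, fell in 2i/L at both passages (-1.09±0.14 and -1.40±0.12).

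After library scaling, median changes of cell cycle genes were nearer 0 than those of the histone rows in the comparisons given here. Of 25 S phase genes, 12 rose and 1 fell in PKCi/L (48.0% and 4.0%, beside 17.5% and 19.1% of all genes; median 0.27), and 1 rose and 12 fell in S/L+PD (4.0% and 48.0%, beside 22.5% and 22.4%; median -0.22). In 2i/L at passage 20, 2 rose and 10 fell (8.0% and 40%, beside 31.2% and 33.4%; median -0.16). Between passages in S/L, where 51 of 55 histone rows rose, 5 of these 25 rose and 6 fell (20% and 24.0%, median -0.05), near the 26.8% and 26.4% of all genes. In 2i/L between passages 4 rose and 12 fell (16.0% and 48.0%, beside 25.2% and 27.1%, median -0.26). The histone median there was -0.28. Without scaling 0 rose and 10 fell in S/L+PD, and 0 rose and 1 fell in PKCi/L. Between passages in S/L 0 then rose and 23 fell. Of all 12942 genes 890 rose and 7806 fell in this comparison without scaling. In PKCi/L 750 of all genes rose and 3046 fell, and in S/L+PD 2120 rose and 2498 fell. In 2i/L at passage 20 the balance of calls turned without scaling, to 9 higher and 2 lower. Of all 12942 genes 6469 were then higher and 1592 lower. Mcm2, a subunit of the replicative helicase, read 190.6, 183.9 and 178.0 CPM in S/L at passage 20 and 184.1, 191.1 and 213.3 in 2i/L, with overlap (0.09±0.08, adjusted p = 0.310; without scaling it rose by 0.48±0.12). Pcna, the sliding clamp of replication, did not pass either, at 106.5, 106.6 and 110.9 against 95.3, 97.2 and 95.1 CPM (-0.17±0.08, adjusted p = 0.0565). Ccne1, the cyclin E1 of S phase entry, is counted with the processing and transcription genes and not with the S phase genes, and Slbp with both. In 2i/L at passage 20 Ccne1 fell from 60.8, 49.2 and 61.8 to 36.0, 48.0 and 43.6 CPM (-0.43±0.11, adjusted p = 0.00221), a call lost without scaling (-0.04±0.14, adjusted p = 0.825). Of 20 G2 and M phase genes, none rose (0 also at an unadjusted p below 0.05 with limma) and 16 fell in 2i/L at passage 20 (80.0%, beside 33.4% of all genes; median -0.47), and 19 rose after the return against 2i/L (95.0%, beside 28.3%; median 0.52). Without scaling 3 rose and 7 fell at passage 20, and 14 rose after the return. Between passages in S/L, with scaling, 10 of these 20 genes rose and 1 fell (median 0.22), beside 26.8% and 26.4% of all genes. The G2 and M phase genes thus rose more often there than all genes, unlike the S phase genes. Between passages in 2i/L 3 of the 20 rose and 10 fell (median -0.16), beside 25.2% and 27.1%. Ccnb1, the mitotic cyclin B1, fell in 2i/L at passage 20 from 153.3, 161.3 and 153.4 to 85.7, 97.2 and 89.1 CPM (-0.78±0.07, adjusted p = 8.27e-09), without overlap. The part of cell cycle phase in the histone result was not tested.

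Histone variant genes without a Hist1h to Hist4h symbol, most of whose mRNAs carry poly(A) tails, were taken beside these. Of 11 such variants measured, 2 rose and 4 fell in 2i/L at passage 20 (18.2% and 36.4%, beside 31.2% and 33.4% of all genes; median -0.15). Between passages in S/L 5 rose and 1 fell (45.5% and 9.1%, beside 26.8% and 26.4%; median 0.15). Without scaling 4 rose and 2 fell, and 3 rose and 6 fell. Of all 12942 genes 6469 then rose and 1592 fell, and 890 rose and 7806 fell. H3f3b, which encodes the replacement histone H3.3, read 500.8, 575.7 and 555.8 CPM in S/L at passage 20 and 269.5, 279.6 and 298.7 in 2i/L (-0.94±0.07, adjusted p = 8.44e-10). H3f3a, which encodes the same protein, fell by 0.90±0.07 on the log2 scale (adjusted p = 1.53e-09). Both genes fell without overlap, as did H2afx, whose H2A variant marks DNA breaks, from 332.2, 281.1 and 391.8 to 224.7, 229.6 and 213.7 CPM (-0.58±0.11), though H2afx was not called without scaling (-0.18±0.15, adjusted p = 0.278). H2afz, an H2A variant of promoters, did not pass (-0.19±0.09, adjusted p = 0.0906). Of 14 histone chaperone genes 9 fell and 3 rose in 2i/L at passage 20 (64.3% and 21.4%, beside 33.4% and 31.2% of all genes; median -0.33), and 7 rose and 4 fell between passages in S/L (50% and 28.6%, beside 26.8% and 26.4%). Without scaling 1 fell and 5 rose, and 1 rose and 6 fell. Nasp, a chaperone of histones H1 and H3, read 281.7, 312.0 and 265.5 CPM in S/L at passage 20, 172.7, 173.0 and 157.1 in 2i/L (-0.77±0.09) and 146.3 and 134.5 in S/L at passage 10 (1.02±0.11 for S/L between passages).

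Of 16 RNAs kept by ribosomal RNA depletion or made without a poly(A) tail, 4 were measured. Malat1, a nuclear RNA that lacks a poly(A) tail, read 772.7, 545.3 and 636.9 CPM in S/L at passage 20 and 1019, 691.5 and 665.5 in 2i/L, which did not pass (0.27±0.18, adjusted p = 0.196) but did without scaling (0.66±0.20, adjusted p = 0.00367). Its groups overlapped, while those of the summed histone classes did not. Of the 4, none rose and 2 fell in 2i/L at passage 20 (0 higher also at an unadjusted p below 0.05 with limma), namely Scarna2 (-0.99±0.14) and Scarna13 (-0.88±0.12), RNAs of Cajal bodies. Without scaling 2 rose and 2 fell. Of all genes 31.2% were higher and 33.4% lower, and without scaling 6469 of 12942 were higher and 1592 lower. In S/L+PD, where 29 of 55 histone rows fell, 3 of these 4 RNAs rose and none fell (median 0.79). Of all genes 22.5% were higher and 22.4% lower there. With 4 of 16 such RNAs measured, the part of RNA type in the histone levels was not tested.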

How the data were processed

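Per the labels' protocols, SSEA1+ cells were sorted from feeder cultures passaged with trypsin, and total RNA was depleted of ribosomal RNA with Ribo-Zero and made into strand-specific paired-end libraries. Per the submitters' processing notes the builds were NCBIM37 and mm9, and the tools were edgeR 3.8.6, HTSeq 0.6.0 and STAR 2.3.0, besides SAMtools 0.1.18.0 and Picard 1.100. The authors deposited 1 table of linear CPM with 2 decimals, in which the third-highest CPM of each of the 12942 genes is at least 1.01. Whole reads could not be recovered from the CPM, so depth is unknown and no count test was run.

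The deposited CPM was rescaled by TMM (own implementation, trims 0.3 and 0.05), converted to log2(CPM + 0.5) and fitted with limma 3.58.1 in R 4.3.3, with moderated variances following the mean. One fit held all 19 libraries in 8 groups (11 residual degrees of freedom), 10 comparisons were drawn from it, and p-values were adjusted by the Benjamini-Hochberg method over all genes in each. The fit was tested on simulated data. Libraries of a group correlated at 0.989 to 0.995. The line pairs libraries across groups because the same cell line was used. Deviations from the group means correlated at a median of 0.026 for libraries of the same line (-0.154 to 0.272, 53 pairs) and -0.011 for those of different lines (104 pairs).

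Alternatives were no scaling, median of ratios scaling, a pseudocount of 0.1 or 1, a mean of at least 5 CPM, the early or late libraries alone, the line as replicate block, and leaving out each library. The members and lists were chosen with earlier results of these data known. Named with values were up to 4 called rows per direction and comparison with the largest change, the row of highest mean CPM in each class and cluster, the testis variants, the Hist3 and Hist4 rows and, of each other list, up to 3 called genes with the largest change beside Slbp, Npat, Mcm2, Pcna, Ccnb1, Ccne1, H2afx, H2afz, H3f3a and H3f3b. Hist1h1c, Hist1h3f, Hist1h4i, Hist2h2ab and Hist1h2af were named after their values were seen. Stem-loops were searched in GENCODE M21 transcripts, a later annotation than the one counted, and no coordinates were moved between builds.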

Additional observations from a re-analysis of the deposited data

Results flagged for a closer look

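The effect of 2i/L against S/L differed between passage 10 and passage 20 in 54 of 55 rows, each by the interaction test in limma at an adjusted p below 0.05, and was lower at passage 20 in all 54. For Hist1h2aa the effect at passage 20 minus that at passage 10 was -5.08 on the log2 scale, and for Hist1h2ba it was -4.40. For Hist1h1e it was -2.70 and for Hist1h2an -2.55. Hist1h2an shares 85.8% of its 50-base stretches with other histone genes, so its level can be shared between copies. Passage and the early or late set of libraries cannot be told apart in the levels, and each effect was taken within its own set.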

How the results depend on the processing

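In the comparison of 2i/L with S/L at passage 20 and in its interaction with passage, 54 rows were lower under both pseudocounts, median of ratios scaling and both blocks. Without scaling 48 and 46 were lower, with a mean of at least 5 CPM 51 and 52, and with a library left out 53 to 54 and 52 to 54. Without library scaling the count was further 3 lower for 2i/L at passage 10, 24 higher for a2i/L, 35 higher for PKCi/L, 18 lower for the return against S/L, 4 lower for S/L between passages, and 1 higher for 2i/L between passages. The all-gene median then shifted to -0.17 for PKCi/L, 0.33 for 2i/L at passage 20, 0.20 and -0.11 for the return against S/L and 2i/L, 0.29 for the interaction, and -0.52 and -0.22 for S/L and 2i/L between passages. With median of ratios scaling, and with the early libraries alone, 2 rows rose in S/L+PD. Calls over all 12942 genes without scaling were 1381 higher and 2236 lower for a2i/L, and 750 and 3046 for PKCi/L. They were 6469 and 1592 for 2i/L at passage 20, and 890 and 7806 for S/L between passages. For the return they were 4230 and 858 against S/L, and 2047 and 3922 against 2i/L. The cause of these shifts was not tested.

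Leaving out each library in turn gave 2 to 19 higher and 2 to 7 lower for 2i/L at passage 10, 16 to 41 higher for a2i/L, 35 to 54 higher for PKCi/L, and 1 to 2 higher and 19 to 31 lower for S/L+PD. It gave 36 to 46 lower for the return against S/L, 44 to 49 higher and 0 to 1 lower against 2i/L, 47 to 51 higher and 0 to 1 lower for S/L between passages, and 2 to 6 higher and 11 to 24 lower for 2i/L between passages. The 1 lower row of S/L between passages appeared without J-37 S/L at passage 20. With the line of the title as replicate block (paired analysis), 49 rows rose in PKCi/L, 32 fell in S/L+PD and 25 fell in 2i/L between passages, and with the line of the generation label 54, 30 and 28. No count of calls moved by over 1.5 times under either block.

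Among the genes named by the rule in the processing section, sign changed in 12 of 1774 recomputed values, 1 of them a called value, that of Hist1h2bb for S/L between passages (-0.07 without scaling). Further called members that turned in that comparison without scaling were Hist1h2bf, Hist1h3d, Hist1h4i and Hist1h4m. With a library left out, 2i/L at passage 10 gave -0.25 to 0.09 for Hist1h3e and -0.34 to 0.10 for Hist1h4d, above 0 without J-35 S/L. For S/L+PD, Hist4h4 gave -0.17 with the title block and -0.02 to 0.16 with a library left out, below 0 without J-34 S/L, and Hist1h2ba -0.05 with the title block. For PKCi/L, Hist1h2ba gave -0.04 without scaling, -0.14 with the title block, and -0.04 to 0.14 with a library left out, where -0.03 was the other value below 0. For 2i/L at passage 10, Hist3h2bb-ps gave -0.11 to 0.27, with -0.11 and -0.03 without J-34 S/L or J-35 2i/L. The CPM carry no depth, so counting error of low members such as Hist2h2ab could not be given.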
